A study of Mus musculus with 2 samples.

Results

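The colony-stimulating factors and their receptors were followed gene by gene through single-cell RNA profiles of mice with 4T1 liver metastases. The members were the gene rows named Csf1, Csf2, Csf3, Csf1r, Csf2ra, Csf2rb, Csf2rb2 and Csf3r, which are 8 of the 32285 gene rows listed in each of 2 droplet libraries, and all 8 were found in both. Female BALB/c mice (strain BALB/cAnNCrl, 7 to 8 weeks of age) had received 4T1 mammary carcinoma cells through the spleen and were then given 1 hepatic arterial infusion (HAI), of the D5W vehicle or of a low or a high dose of CBL0137, a curaxin that loosens DNA from histones. Cells were collected 5 days after treatment from 2 pooled mice per group. In each library the groups were told apart by hashtags, antibodies that carry a barcode: A0301 for vehicle, A0305 for the low dose and A0310 for the high dose. The amounts of drug behind the words low and high are not stated in the sources used here. All groups carried 4T1 tumors, so no tumor-free level is in hand, and the mixed populations were described by the labels as leukocytes and by the study's methods as CD11b+ cells taken with beads. Cells that should lack CD11b were present all the same, with 2470 T cell-like and 1521 B cell-like among the 8435 assigned cells of the library labelled liver.

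One library was labelled liver and the other spleen, but their contents went against those labels. Genes of Kupffer cells (Clec4f and 3 others) summed to 8.56 CPM (counts scaled to 1000000 UMIs) in the liver-labelled library and to 437.4 CPM in the spleen-labelled library, and hepatocyte genes to 0.0728 and 67.0 CPM. A list read for spleen (Spic of red pulp macrophages and the B cell genes Cr2, Fcer2a and Ighd) stood at 145.6 and 37.6 CPM. The libraries are therefore named by their labels only. The liver-labelled library held 9591 barcodes with a median of 4673 unique molecular identifiers (UMIs), of which 8435 carried 1 hashtag (3103 vehicle, 3194 low dose and 2138 high dose). The spleen-labelled library held 4830 barcodes with a median of 3368.5 UMIs, of which 2988 carried 1 hashtag (822, 1301 and 865), and 15 barcodes occurred in both libraries. Each hashtag group of a library is 1 pooled sample, so no test was possible and none was made. Every interval is a 95% interval of counting error alone and leaves out the spread between mice. Intervals on UMIs also leave out the spread between cells, so they are too narrow where a few cells hold most of the UMIs.

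Colony-stimulating factors are secreted proteins that keep myeloid cells alive and drive their growth and maturation. Csf1 (M-CSF) acts through the receptor tyrosine kinase Csf1r on monocytes and macrophages, Csf3 (G-CSF) through Csf3r on cells of the neutrophil lineage, and Csf2 (GM-CSF) through a receptor made of a specific alpha chain, Csf2ra, and a common beta chain, Csf2rb, which the receptors for interleukin-3 and interleukin-5 also use. Mice have an additional beta chain, Csf2rb2, that pairs with the interleukin-3 receptor. The 4T1 line is known for releasing G-CSF and for swelling the granulocyte pool of its host, which is the setting in which myeloid-derived suppressor cells (MDSCs) are studied.

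RefSeq start-site windows on GRCm38.p6, from 250 bases before the start of transcription to 50 after it, were at hand for 5 of the 8 members. Those of 4 members that neutrophil-like cells carried, Csf1, Csf3r, Csf2ra and Csf2rb2, are shown because Csf1 and Csf3r were highest in the same clusters of these cells, while Csf2rb2 was also high in endothelial-like cells. Capitals mark matches on either strand to GAGGAA, the core letters bound by PU.1, to TTNCNNAA, a loose form of the C/EBP site, or to TTCNNNGAA, the STAT type of site. Sequences read 5′ to 3′ along the gene.
Csf1, chr3:107760420-107760719, minus strand: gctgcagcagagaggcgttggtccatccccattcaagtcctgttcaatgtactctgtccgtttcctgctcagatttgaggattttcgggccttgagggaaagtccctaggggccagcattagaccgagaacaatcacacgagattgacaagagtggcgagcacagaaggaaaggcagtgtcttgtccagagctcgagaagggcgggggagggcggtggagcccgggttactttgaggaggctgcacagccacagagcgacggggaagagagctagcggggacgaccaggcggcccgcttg
Csf3r, chr4:126024409-126024708, plus strand: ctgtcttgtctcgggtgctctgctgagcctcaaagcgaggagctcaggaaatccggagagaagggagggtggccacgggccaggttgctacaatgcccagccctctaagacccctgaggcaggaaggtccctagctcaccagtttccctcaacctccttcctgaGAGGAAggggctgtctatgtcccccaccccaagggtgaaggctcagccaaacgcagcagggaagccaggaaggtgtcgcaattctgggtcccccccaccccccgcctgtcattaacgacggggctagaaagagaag
Csf2ra, chr19:61228369-61228668, minus strand: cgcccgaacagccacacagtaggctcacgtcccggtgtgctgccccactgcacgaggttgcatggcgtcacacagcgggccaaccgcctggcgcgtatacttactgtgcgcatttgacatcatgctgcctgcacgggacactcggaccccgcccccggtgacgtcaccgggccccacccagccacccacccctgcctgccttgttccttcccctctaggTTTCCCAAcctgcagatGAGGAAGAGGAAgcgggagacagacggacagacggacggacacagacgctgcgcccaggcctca
Csf2rb2, chr15:78305672-78305971, minus strand: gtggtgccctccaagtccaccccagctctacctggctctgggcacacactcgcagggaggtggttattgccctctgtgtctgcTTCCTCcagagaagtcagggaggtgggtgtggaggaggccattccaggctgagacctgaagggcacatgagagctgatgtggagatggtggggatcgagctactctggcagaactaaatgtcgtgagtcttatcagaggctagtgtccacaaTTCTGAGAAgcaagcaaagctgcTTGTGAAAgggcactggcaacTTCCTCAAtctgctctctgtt
The Csf1 window held none of the 3 patterns. The Csf3r window held GAGGAA 86 bases before the start. The Csf2ra window held GAGGAA at 14 and at 8 bases before the start and a C/EBP type match at 31. The Csf2rb2 window held 2 matches to GAGGAA, 2 to the C/EBP type, 1 of them overlapping a GAGGAA match, and 1 to the STAT type at 15 bases before the start. Of all 32851 RefSeq windows of this length, 28.3% held GAGGAA, 40.7% held TTNCNNAA and 8.3% held TTCNNNGAA, so these letters are common and their presence is a description of the windows only.

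Clusters of cells were formed without the 8 members and were called X-like from marker genes. Read in this way, the factors and their receptors were spread over different cells. Csf1 was carried by neutrophil-like cells in both libraries, and in the spleen-labelled library also by T cell-like, endothelial-like and 4T1 tumor cell-like cells. Csf3 was almost wholly in 4T1 tumor cell-like cells, and Csf2 was at a few UMIs in T cell-like and NK cell-like cells. Csf1r was highest in macrophage-like and then monocyte-like cells, Csf3r in neutrophil-like cells, and Csf2ra and Csf2rb over the whole myeloid range, as the map of levels by cell class shows.

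**Figure D1:**
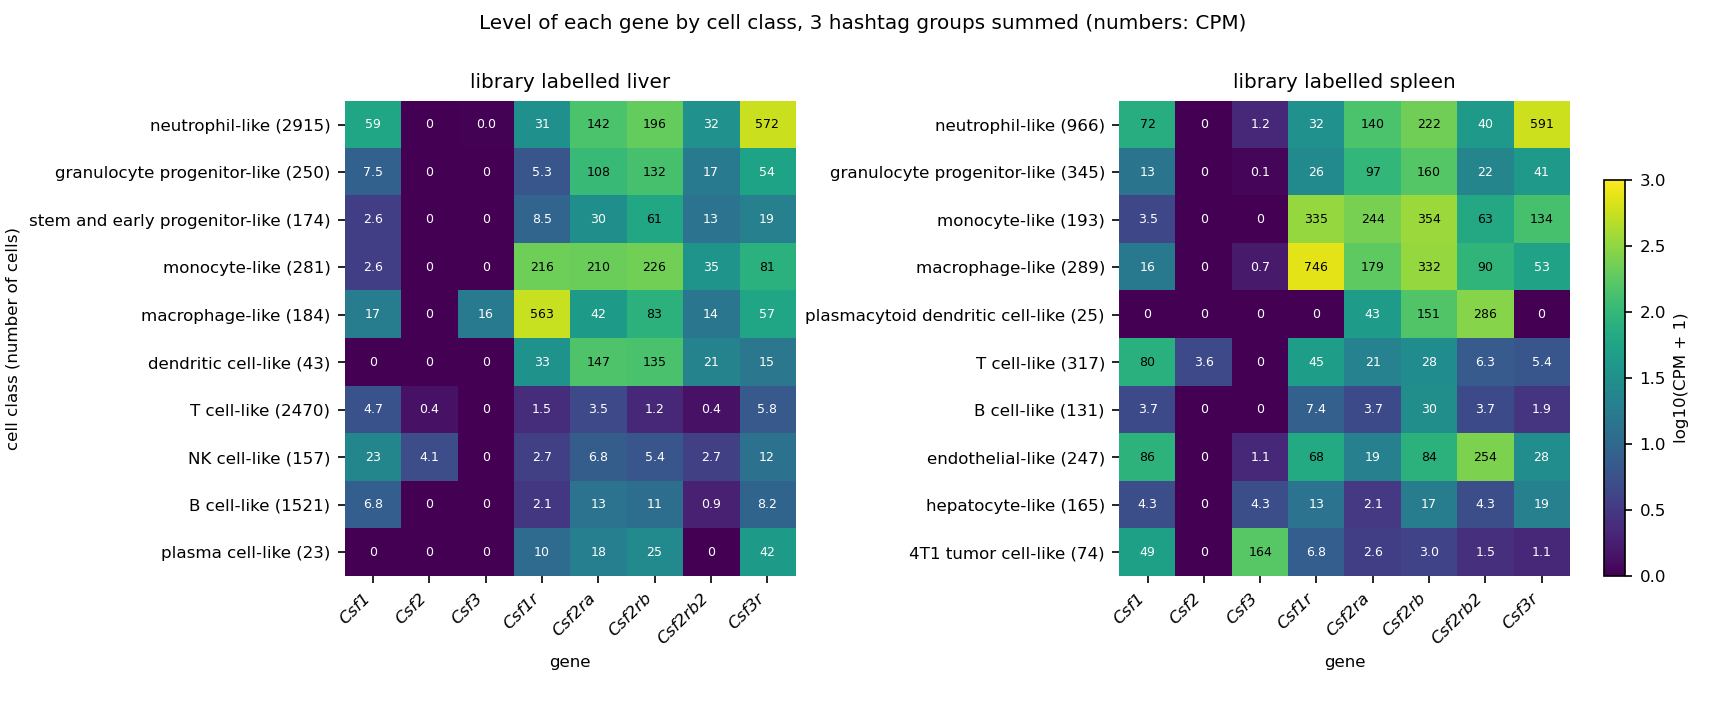
Level of each of the 8 genes (columns) in each cell class (rows, with the number of cells) of both libraries, with the hashtag groups summed. The colour is log10(CPM + 1) and the number in a cell is the CPM. Csf3 stood at 164 CPM in 4T1 tumor cell-like cells, and Csf1r at 563 and 746 CPM in macrophage-like cells.

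Csf1 (ENSMUSG00000014599, chr3:107741048-107760469, minus strand, GRCm38) encodes the factor for macrophages. In the liver-labelled library, neutrophil-like cells held Csf1 at 74.1 CPM with the vehicle (884 UMIs in 1428 cells), 59.9 CPM at the low dose (663 UMIs in 1289 cells) and 11.4 CPM at the high dose (45 UMIs in 198 cells). The spleen-labelled library gave 76.4 CPM (127 UMIs in 293 cells), 97.6 CPM (278 UMIs in 562 cells) and 12.3 CPM (16 UMIs in 111 cells). The high-dose level was the lowest in both libraries, and its interval lay below those of the other groups: 8.31 to 15.2 against 69.3 to 79.2 CPM with the vehicle in the first, and 7.04 to 20.0 against 63.7 to 91.0 CPM in the second. The high-dose cells were also the most deeply sampled, at a median of 18598 UMIs against 4367 with the vehicle in the liver-labelled library and 11077 against 3413 in the other, and the part of depth was not tested. As log2 ratios to vehicle, the high dose stood at -2.70 (-3.17 to -2.27) and -2.63 (-3.48 to -1.88), and the former read -3.65 as a mean over cells. The low dose lay on opposite sides of the vehicle, at -0.31 (-0.46 to -0.16) in the liver-labelled library and at 0.35 (0.0445 to 0.67) in the other.

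These cells were the main holders of Csf1. With the vehicle they held 88.6% (86.4 to 90.5) of the 998 Csf1 UMIs of the liver-labelled library and 59.9% (53.0 to 66.6) of the 212 of the spleen-labelled library. At the high dose these shares were 43.7% of 103 UMIs and 4.79% of 334 UMIs. In the latter group T cell-like cells held 36.8% and 4T1 tumor cell-like cells 27.5% of the Csf1 UMIs, and neutrophil-like cells were 111 of 865 cells against 293 of 822 with the vehicle. The second of these vehicle shares rests on the naming of 1 cluster. When barcodes needed 200 genes or more and a mitochondrial share below 10%, 185 of the 227 cells of the cluster with the most Csf1 were placed in a cluster that stayed unnamed, and the share read 16.0% (11.2 to 21.8). The high-dose ratio then read -1.25 (-2.34 to -0.25).

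**Figure D2:**
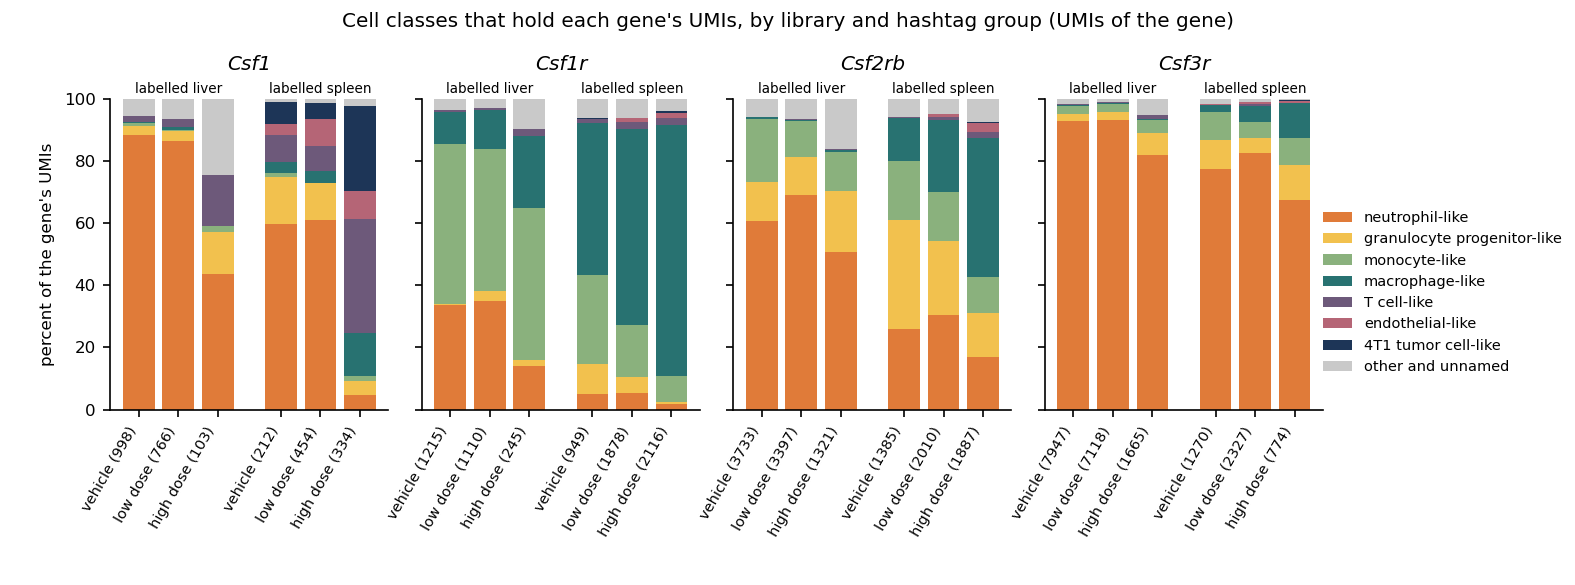
Percent of the UMIs of Csf1, Csf1r, Csf2rb and Csf3r held by each cell class, in bars for each library and hashtag group, with the UMIs of the gene in brackets. Neutrophil-like cells held 93.1% of Csf3r with the vehicle in the liver-labelled library, and 4.79% of Csf1 at the high dose in the spleen-labelled library.

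The neutrophil-like cells were not uniform. Clusters 2 and 3 of the liver-labelled library, led by Il1b, Igfbp6 and Csf3r among others, held Csf1 at 219 and 175 CPM, against 13.4, 13.7 and 4.24 CPM in clusters 6, 9 and 7, which were led by Stfa and Cstd genes, by Prok2 and Retnlg, and by the granule genes Ltf, Camp and Ngp. In the spleen-labelled library, cluster 2 (led by Ccrl2, Il1b and Hcar2) held 517 CPM, cluster 0 held 89.5 CPM, cluster 13 held 31.9 CPM, and clusters 8 and 11 held 9.49 and 5.92 CPM. The intervals of the last 2 overlapped (5.62 to 15.0 and 2.71 to 11.2 CPM), as did those of clusters 6 and 9 of the liver-labelled library, and the other neighbours in both orders were apart. The clusters high in Csf1 had the fewer UMIs per cell: the medians were 3305.5 and 3523 in clusters 2 and 3, and 13298.5, 11823 and 22974 in clusters 6, 9 and 7. These depths moved with the Csf1 level, and their part in it was not tested.

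The high-dose cells were spread over the clusters in other proportions than the vehicle cells. Of the 1428 neutrophil-like cells of the vehicle in the liver-labelled library, 45.8% were in cluster 2 and 24.4% in cluster 3, and of the 198 of the high dose 4.55% and 1.52% were, which are 9 and 3 cells. Cluster 6 held 10.9% with the vehicle and 56.1% at the high dose. At the low dose clusters 2 and 3 of that library held 23.7% and 35.1%. The spleen-labelled library had 33.8% in cluster 2 and 35.8% in cluster 0 with the vehicle, 2.70% and 16.2% at the high dose, and 57.7% in cluster 8 at the high dose. Cluster 13 was nearly all low dose, with 117 of its 122 cells. Within the clusters that allowed a ratio of high dose to vehicle, the intervals of Csf1 held 0. The log2 ratios were 0.47 (-0.41 to 1.37) in cluster 6, 0.61 (-0.94 to 2.02) in cluster 7 and 1.35 (-0.20 to 2.84) in cluster 9, and -0.17 (-1.97 to 1.67) in cluster 8 of the spleen-labelled library, on 6 to 27 UMIs in a group and so with wide intervals. Cluster 11 there had 5 UMIs with the vehicle and none at the high dose, too few for a ratio. For the low dose, cluster 2 of the liver-labelled library stood at 0.04 (-0.17 to 0.25) and cluster 3 at -0.35 (-0.59 to -0.10). Clusters 6, 7 and 9 there stood at 0.70 (-0.12 to 1.56), 0.94 (-0.11 to 2.03) and 0.90 (-0.15 to 2.085). In the spleen-labelled library cluster 0 stood at 1.52 (0.81 to 2.29). Csf1 of that cluster was 44.1 CPM with the vehicle and 126.1 CPM at the low dose. Cluster 2 of that library, its highest in Csf1, stood at 0.29 (-0.0808 to 0.67), and cluster 8 at -0.11 (-2.16 to 1.86). At the high dose, fewer cells of the Csf1-high clusters and less Csf1 in each of them cannot be told apart. Clusters 2 and 3 of the liver-labelled library then held 9 and 3 cells, and cluster 2 of the spleen-labelled library 3 cells.

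**Figure D3:**
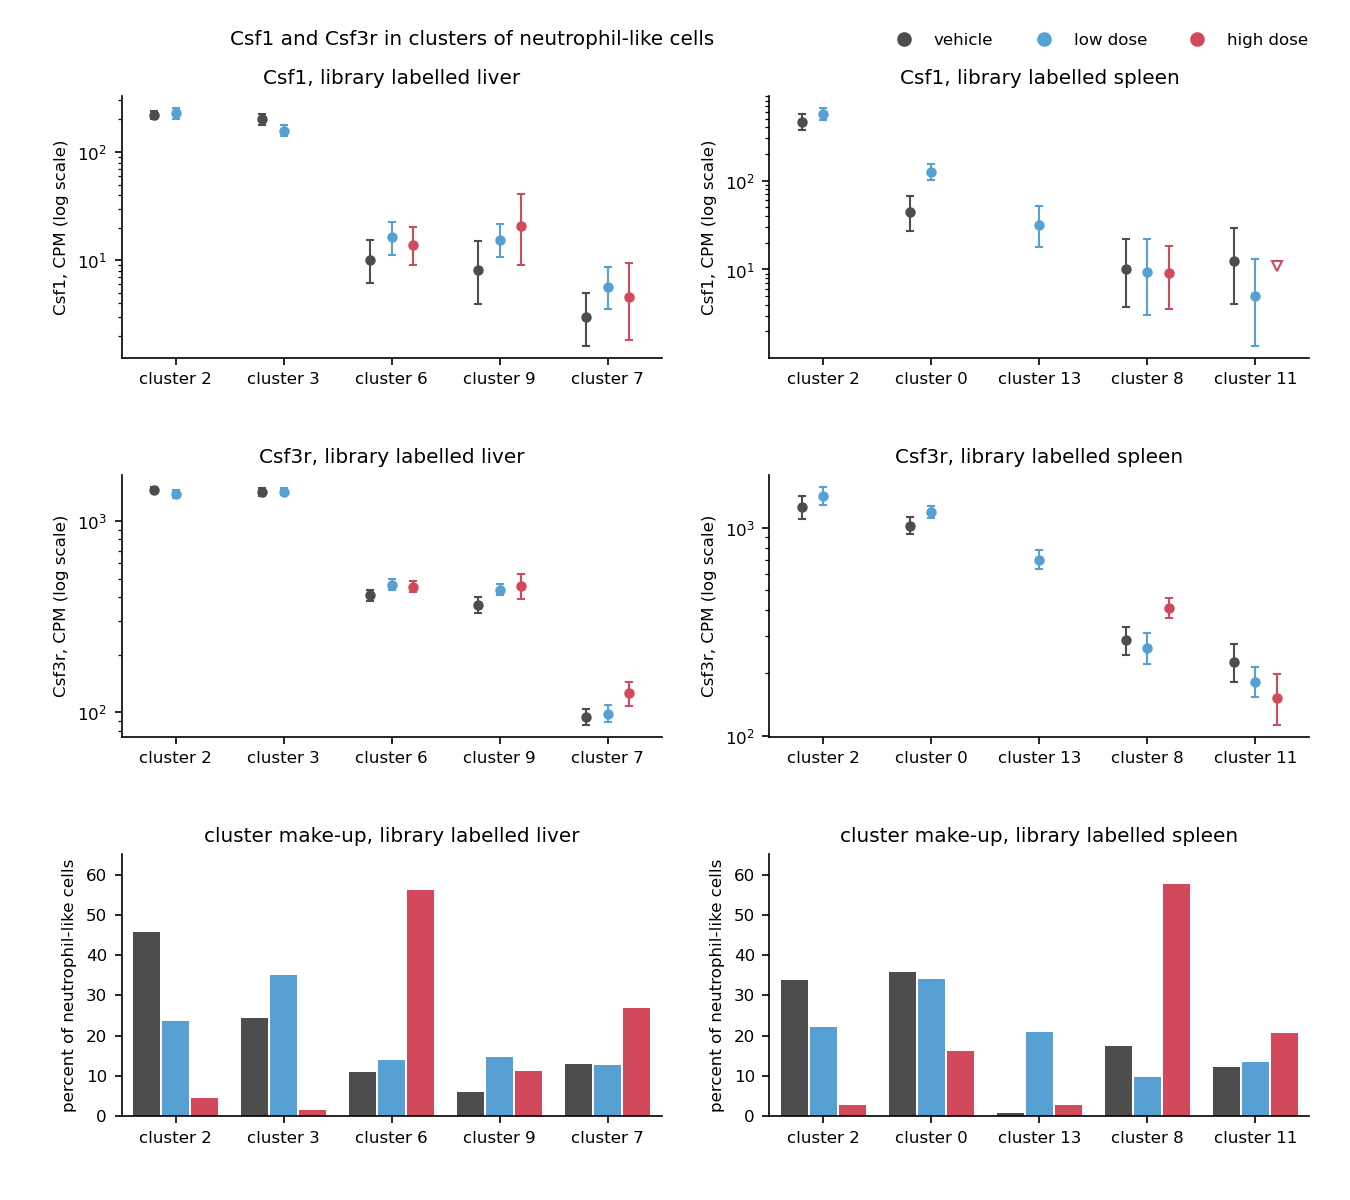
Csf1 (top) and Csf3r (middle) in CPM on a log scale with 95% counting intervals, by neutrophil-like cluster and hashtag group, and the percent of neutrophil-like cells in each cluster (bottom). Groups with fewer than 20 cells in a cluster have no point, and an open triangle is the upper bound where no UMI was seen. Clusters 2 and 3 of the liver-labelled library, high in both genes, held 45.8% and 24.4% of the vehicle cells and 4.55% and 1.52% of the high-dose cells.

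Other cells of the spleen-labelled library carried Csf1 as well. T cell-like cells held 83.9, 58.0 and 89.8 CPM in the vehicle, low-dose and high-dose groups (19, 37 and 123 UMIs). Most of these UMIs, 157, were in cluster 4, led by the killer-cell genes Gzma, Ccl5 and Gzmb with Cd8a, which raised 4 of the NK cell markers beside 6 of the T cell markers, at 94.9 CPM (80.7 to 111), against 37.9 CPM (23.8 to 57.4) in cluster 14, led by Il7r and Lef1. Endothelial-like cells held 80.4, 128.9 and 60.8 CPM (7, 39 and 30 UMIs), and 4T1 tumor cell-like cells 115.6, 61.0 and 43.3 CPM (15, 24 and 92 UMIs). The tumor cell-like ratio of high dose to vehicle was -1.42 (-2.21 to -0.52) on the log2 scale. Per cell the order was the other way: Csf1 was seen in 6 of 11, 9 of 16 and 35 of 47 of them. The median cell had 1, 1.5 and 2 Csf1 UMIs, at median depths of 13960, 29313 and 44574 UMIs. Of the 15 vehicle UMIs 6 were in 1 cell, and the part of depth was not tested. Neutrophil RNA free in the droplets would bring S100a8 with it. From the S100a8 UMIs of each class and the ratio of Csf1 to S100a8 in neutrophil-like cells, 0.865 Csf1 UMIs would be found in the T cell-like cells against 179 seen, 0.216 in endothelial-like cells against 76, and 0.116 in tumor cell-like cells against 131.

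T cell-like cells of the liver-labelled library held Csf1 at 7.38, 4.79 and 3.08 CPM. These classes are unlike in content, since NK cell-like cells formed a class of their own there and the spleen-labelled library had none, so no ratio between the libraries is given. In the liver-labelled library the highest T cell-like level was in cluster 5, whose leading genes included Foxp3, Ctla4 and Ikzf2 of regulatory T cells, at 45.6, 23.5 and 11.98 CPM (17, 15 and 14 UMIs), and the high dose stood at -1.93 (-3.06 to -0.82) to vehicle. B cell-like cells, which are not known as a source, held Csf1 at 6.83 CPM in that library and 3.70 CPM in the spleen-labelled library. Thinned to 500 UMIs per cell, 7.84% of vehicle neutrophil-like cells and 0 of 528 B cell-like cells of the liver-labelled library had a Csf1 UMI, and unthinned the shares were 32.2% and 1.70% at median depths of 4367 and 3498 UMIs.

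Csf3 (ENSMUSG00000038067, chr11:98701263-98703629, plus strand) encodes the granulocyte factor. In the spleen-labelled library, 433 of its 449 UMIs in cells with a hashtag, 96.4% (94.3 to 98.0), lay in the 74 tumor cell-like cells, whose leading genes were Wfdc2, Krt8 and Krt18. The vehicle group had 50 UMIs in 3 of 11 such cells, the low dose 68 in 9 of 16 and the high dose 315 in 27 of 47. The levels were 385 CPM (286 to 508), 173 CPM (134 to 219) and 148 CPM (132 to 166). A few cells held most of them: the highest cell had 24, 23 and 101 UMIs, and the median cell 0, 1 and 1. Without the highest cell of each group the levels were 237.9, 119.7 and 103.2 CPM. The log2 ratios to vehicle were -1.16 (-1.71 to -0.60) at the low dose and -1.38 (-1.81 to -0.92) at the high dose, but the vehicle value rests on 3 cells. Of the tumor cell-like cells with a Csf3 UMI, 2 of 3, 7 of 9 and 22 of 27 also had a Csf1 UMI, at median depths of 13960, 29313 and 44574 UMIs over all tumor cell-like cells.

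**Figure D4:**
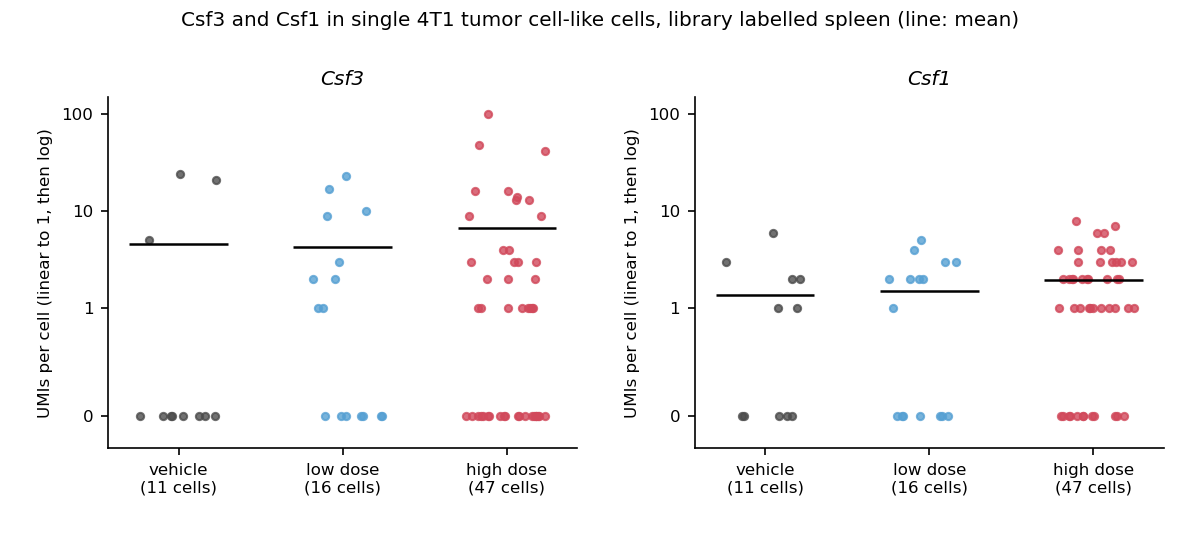
UMIs of Csf3 (left) and Csf1 (right) in each 4T1 tumor cell-like cell by hashtag group, on an axis that is linear to 1 and then logarithmic, with the mean as a line. The highest Csf3 cell held 24, 23 and 101 UMIs in the vehicle, low-dose and high-dose groups, and the median cell 0, 1 and 1.

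Beyond tumor cell-like cells, Csf3 was rare. The liver-labelled library held 10 Csf3 UMIs in hashtag-assigned cells, 9 of them in 1 macrophage-like cell of the low dose, and no cluster there was named for tumor cells. The spleen-labelled library had 3 Csf3 UMIs in macrophage-like cells, 2 in hepatocyte-like cells and 2 in unnamed clusters. Granulocyte progenitor-like and endothelial-like cells had 1 each. The remaining hashtag-assigned Csf3 UMIs outside tumor cell-like cells lay in neutrophil-like cells, which held more than macrophage-like cells did. In barcodes without a single hashtag, where 169 further UMIs were seen, 154 lay in the set of 47 barcodes that showed at least 3 of the 8 tumor markers. Only 16 barcodes without a single hashtag had any Csf3 UMI, and 1 of them held 119.

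Csf2 (ENSMUSG00000018916, chr11:54247271-54249667, minus strand) encodes the granulocyte-macrophage factor and was close to the detection limit. All 8 UMIs of the hashtag-assigned cells in the spleen-labelled library were in T cell-like cells, none with the vehicle, 4 at the low dose and 4 at the high dose. The liver-labelled library had 5 UMIs in T cell-like cells, all at the low dose, and 3 in NK cell-like cells. Tumor cell-like cells had no Csf2 UMI, which allows up to 1.13 CPM, and neutrophil-like cells of the liver-labelled library had none, which allows up to 0.111 CPM. No group difference in Csf2 was detectable at this depth.

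Csf1r (ENSMUSG00000024621, chr18:61100598-61132149, plus strand) encodes the receptor for Csf1. Macrophage-like cells held it at 528, 689 and 430 CPM in the vehicle, low-dose and high-dose groups of the liver-labelled library (126, 142 and 57 UMIs) and at 620, 807 and 748 CPM in the spleen-labelled library (466, 1187 and 1714 UMIs). Monocyte-like cells followed at 188, 274 and 192 CPM and at 341, 347 and 309 CPM, with intervals below those of macrophage-like cells of the same group in both libraries. Of the unnamed clusters of the spleen-labelled library, cluster 9, led by MHC class II genes, held 236 CPM (205 to 270). Neutrophil-like cells held 34.4, 34.9 and 8.60 CPM and 28.9, 35.1 and 29.2 CPM. T cell-like cells of the liver-labelled library, which should lack the receptor, held 1.498 CPM over all groups. Those of the spleen-labelled library held 53.0, 67.4 and 33.6 CPM (12, 43 and 46 UMIs), above the neutrophil-like values there. These T cell-like UMIs were gathered in few cells, as given below, so they are no even background. Whether the neutrophil-like Csf1r of that library exceeded a background was not tested. Its neutrophil-like cluster 2 held 77.1 CPM with the vehicle and 78.5 CPM at the low dose, from 16 and 22 UMIs. Neutrophil-like cluster 11 held 53.0 and 3.81 CPM, from 21 and 3 UMIs.

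The 2 macrophage-like clusters of the spleen-labelled library differed. Cluster 16, led by Marco and Clec4f of Kupffer cells, held 1575 CPM (1493 to 1661), and cluster 3, led by Arg1, Ccl8 and Pf4, held 547 CPM (523 to 571). As a class, macrophage-like cells stood at 0.38 (0.22 to 0.54) at the low dose and at 0.27 (0.12 to 0.42) at the high dose against vehicle on the log2 scale. Cluster 16 made up 10.7% of the vehicle's 56 macrophage-like cells, 22.7% of the 110 of the low dose and 31.7% of the 123 of the high dose. Within cluster 3 the low dose stood at 0.19 (0.00708 to 0.37) and the high dose at -0.13 (-0.30 to 0.0497), and cluster 16 had only 6 vehicle cells. The class value turned to -0.36 (-0.69 to -0.0129) at a clustering resolution of 0.4, where all 219 cells of cluster 3 were placed in a monocyte-like cluster.

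In neutrophil-like cells the Csf1r ratio was not alike in the libraries. The high dose stood at -1.998 (-2.55 to -1.49) in the liver-labelled library, from 410 and 34 UMIs, and at 0.02 (-0.64 to 0.66) in the spleen-labelled library, from 48 and 38 UMIs, and the difference between them was not tested. As with Csf1, clusters 2 and 3 of the liver-labelled library were the higher ones, at 88.4 and 85.6 CPM against 15.8, 15.7 and 5.55 CPM in clusters 6, 9 and 7. Within clusters 6, 7 and 9 the high dose stood at -0.48 (-1.29 to 0.31), -1.78 (-4.915 to 0.25) and -0.75 (-3.17 to 1.06), with intervals that held 0. Clusters 7 and 9 had 2 and 3 Csf1r UMIs at the high dose. The clusters of the spleen-labelled library went opposite ways on few UMIs: cluster 8 had 2 with the vehicle and 21 at the high dose, and cluster 11 had 21 and 6.

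Granulocyte progenitor-like cells of the spleen-labelled library held Csf1r at 31.2, 29.3 and 9.91 CPM (92, 98 and 14 UMIs in 28, 39 and 4 cells). Their 2 clusters were filled unequally: cluster 6, led by Ctsg and Mpo, had 70, 90 and 14 cells and held Csf1r at 54.1 CPM with the vehicle, and cluster 7, led by Camp and Cebpe, had 67, 59 and 45 cells and held 2.30 CPM. With 14 cells of cluster 6 at the high dose, fewer such cells and less Csf1r in each cannot be told apart. Granulocyte progenitor-like cells of the liver-labelled library were cluster 11, led by Elane and Prtn3, so the classes are unlike in content. They held 1.09, 11.7 and 2.74 CPM, where the low-dose value came from 37 UMIs in 8 cells. Some Csf1r UMIs in other classes were likewise gathered in few cells: the 60 of endothelial-like cells were in 12 of 247 cells, and the 101 of T cell-like cells of the spleen-labelled library in 26 of 317.

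Csf3r (ENSMUSG00000028859, chr4:126024550-126044440, plus strand) encodes the receptor for Csf3. Neutrophil-like cells held it at 620, 601 and 346 CPM in the vehicle, low-dose and high-dose groups of the liver-labelled library (7396, 6657 and 1369 UMIs) and at 594, 676 and 403 CPM in the spleen-labelled library (987, 1924 and 523 UMIs). The high dose was lowest in both, at -0.84 (-0.92 to -0.76) and -0.56 (-0.72 to -0.41) to vehicle on the log2 scale (-1.41 and -0.88 when each cell was scaled and the cells averaged), and the low dose stood at -0.04 (-0.0929 to 0.0031) and 0.19 (0.0738 to 0.30). With the vehicle these cells held 93.1% (92.5 to 93.6) and 77.7% (75.3 to 80.0) of all Csf3r UMIs. The vehicle levels of the libraries differed by -0.06 (-0.16 to 0.0343) on the log2 scale. The neutrophil-like classes are not wholly alike in content, so this ratio also compares different cells. Cluster 7 of the liver-labelled library, led by Ltf, Camp and Ngp, was neutrophil-like. Cluster 7 of the other, led by Camp and Cebpe, was called granulocyte progenitor-like. Monocyte-like cells held 67.4, 96.9 and 108.6 CPM and 142, 135 and 119 CPM. They were next in every group but the vehicle of the liver-labelled library, where the unnamed clusters held 93.9 CPM (66.1 to 129, from 37 UMIs) and 4 plasma cell-like cells 99.1 CPM (52.8 to 169.5, from 13 UMIs). Computed from S100a8 over all groups, free neutrophil RNA would give 164 Csf3r UMIs in monocyte-like cells of the liver-labelled library against 472 seen. In the other it would give 87.4 against 303. This was not computed for each group.

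Csf3r varied over the neutrophil-like clusters in much the same order as Csf1. Clusters 2 and 3 of the liver-labelled library held 1428 and 1422 CPM, cluster 6 held 442 CPM, cluster 9 held 417 CPM and cluster 7 held 101 CPM. In the spleen-labelled library the values were 1339 CPM in cluster 2, 1109 CPM in cluster 0, 675 CPM in cluster 13, 332 CPM in cluster 8 and 186 CPM in cluster 11. Within clusters with at least 20 cells in both groups, the high dose lay above the vehicle in cluster 6 (0.15, 0.00939 to 0.28), cluster 7 (0.41, 0.16 to 0.66) and cluster 9 (0.33, 0.0679 to 0.58) of the liver-labelled library and in cluster 8 of the other (0.52, 0.25 to 0.80), and below it in cluster 11 of the latter (-0.57, -1.10 to -0.0590). The class ratio and the ratios within clusters thus had opposite signs in 4 of these 5 clusters.

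The share of neutrophil-like cells with a Csf3r UMI depended on depth. At 500 UMIs per cell it was 42.4%, 36.5% and 19.2% in the vehicle, low-dose and high-dose groups of the liver-labelled library, and 31.7%, 39.9% and 19.8% in the spleen-labelled library. Unthinned it was 95.3%, 94.1% and 96.0%, and 87.7%, 88.1% and 90.1%, at median depths of 4367, 5724 and 18598 UMIs and of 3413, 3997 and 11077 UMIs. T cell-like cells gave 0.677% at 500 UMIs with the vehicle in the liver-labelled library.

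Csf2ra (ENSMUSG00000059326, chr19:61223957-61228429, minus strand) and Csf2rb (ENSMUSG00000071713, chr15:78325752-78353847, plus strand) encode the chains that bind Csf2 and pass its signal on. Neutrophil-like cells held Csf2rb at 190.7, 211.8 and 170.0 CPM in the vehicle, low-dose and high-dose groups of the liver-labelled library and at 216, 215 and 245 CPM in the spleen-labelled library. They held Csf2ra at 136, 154 and 127 CPM and at 129, 149 and 136 CPM. The high-dose ratios of Csf2rb to vehicle were -0.17 (-0.29 to -0.0408) and 0.18 (-0.0428 to 0.40), where the value of the liver-labelled library read -0.0344 without the 20 most abundant genes and -0.53 as a mean over cells. Those of Csf2ra were -0.10 (-0.25 to 0.0462) and 0.08 (-0.21 to 0.37). Both genes were flatter over neutrophil-like clusters than Csf1 and Csf3r: Csf2ra lay between 124 and 166 CPM in clusters 2, 3, 6, 7 and 9 of the liver-labelled library, and Csf2rb between 135 and 296 CPM.

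The receptor chains of Csf2 were also found outside neutrophil-like cells. Granulocyte progenitor-like cells held Csf2rb at 132 and 160 CPM over all groups of the libraries labelled liver and spleen, and stem and early progenitor-like cells held 61.2 CPM. Monocyte-like cells of the spleen-labelled library held Csf2rb at 331, 358 and 378 CPM and Csf2ra at 237, 223 and 289 CPM in the vehicle, low-dose and high-dose groups. Macrophage-like cells there held Csf2rb at 259, 313 and 369 CPM, and the high dose stood at 0.51 (0.28 to 0.74) to vehicle. Macrophage-like cells of the liver-labelled library held 101, 77.6 and 60.3 CPM, and the vehicle ratio between the libraries was 1.37 (0.75 to 2.04). These classes are unlike in content, so the ratio also compares different cells. The liver-labelled class was cluster 14, led by C1qa and Vcam1 with Spic among its leading genes, at a median of 1479 UMIs. The spleen-labelled class was the Arg1-led cluster 3 and the Kupffer-led cluster 16, at medians of 14936 and 11188.5 UMIs. Within cluster 3 the high-dose ratio was 0.21 (-0.0421 to 0.47), and cluster 16 held 554 CPM against 279 CPM in cluster 3. Tumor cell-like cells held 3.02 CPM of Csf2rb and 2.64 CPM of Csf2ra.

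Csf2rb2 (ENSMUSG00000071714, chr15:78282507-78305721, minus strand) encodes the additional beta chain of mice and lies 20030 bases from Csf2rb. Of the 50-base words in the last 1000 bases of its annotated transcripts, 10.8% also occur in transcripts of Csf2rb, so a part of the reads of these genes may be shared and both levels are uncertain to that extent. Endothelial-like cells, whose leading genes included Clec4g of liver sinusoids and the VEGF receptor gene Kdr, held Csf2rb2 at 494 CPM (358 to 665) with the vehicle, 215 CPM (166 to 274) at the low dose and 235 CPM (194 to 282) at the high dose, from 43, 65 and 116 UMIs in 35, 104 and 108 cells. Both doses lay below the vehicle, at -1.20 (-1.78 to -0.61) and -1.07 (-1.59 to -0.53). Csf2rb and Csf1r of these cells lay on the other side of the vehicle. Csf2rb stood at 23.0, 66.1 and 105.5 CPM (2, 20 and 52 UMIs), with the low dose at 1.525 (-0.52 to 4.67) and the high dose at 2.20 (0.27 to 5.28). Csf1r stood at 11.49, 72.7 and 75.0 CPM (1, 22 and 37 UMIs), gathered in few cells as given above. Csf3r did not follow them at the low dose, at 57.4 CPM with the vehicle and 52.9 CPM at the low dose (-0.12, -1.63 to 1.68). These were 5 and 16 of the 25 Csf3r UMIs of endothelial-like cells, and too few remained for a high-dose ratio. The median share of mitochondrial UMIs of the endothelial-like cells was 18.6%, and 21.9% of them met that same filter of 200 genes and a 10% mitochondrial share. The part of cell quality in the Csf2rb2 ratio was not tested.

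The 25 plasmacytoid dendritic cell-like cells held Csf2rb2 at 286 CPM (214 to 374), from 53 UMIs in 15 cells, and had no UMI of Csf1r or Csf3r, which allows up to 16.2 CPM of each. Neutrophil-like cells held Csf2rb2 at 30.1, 32.9 and 33.4 CPM in the vehicle, low-dose and high-dose groups of the liver-labelled library and at 38.5, 39.3 and 43.1 CPM in the other. Macrophage-like cells of the spleen-labelled library held 70.5, 95.8 and 93.4 CPM, and T cell-like cells of the liver-labelled library, as a background, 0.394 CPM.

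Monocyte-like cells carried all 5 receptor genes, with levels that were not alike in the libraries. With the vehicle, the log2 ratio of the spleen-labelled library to the other was 0.86 (0.65 to 1.07) for Csf1r, 1.08 (0.74 to 1.41) for Csf3r and 0.54 (0.33 to 0.74) for Csf2rb. Macrophage-like cells of the vehicle were higher in the spleen-labelled library for Csf2ra, by 1.41 (0.60 to 2.32), and for Csf2rb2, by 2.07 (0.63 to 4.00), and the interval of Csf1r held 0, at 0.23 (-0.0556 to 0.53). The macrophage-like classes of the libraries are unlike in content, as given above, so these ratios also compare different cells. Against vehicle, monocyte-like Csf1r at the low dose stood at 0.54 (0.37 to 0.71) in the liver-labelled library and at 0.02 (-0.22 to 0.26) in the other. Csf3r of these cells stood at 0.69 (0.28 to 1.09) at the high dose in the former and at -0.26 (-0.72 to 0.18) in the latter, and neither difference between the libraries was tested. The part of free neutrophil RNA in the Csf3r ratios of monocyte-like cells was not tested. The Csf2rb2 level of monocyte-like cells of the spleen-labelled library was 47.8 CPM with the vehicle and 87.2 CPM at the high dose, at 0.87 (0.23 to 1.51).

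**Figure D5:**
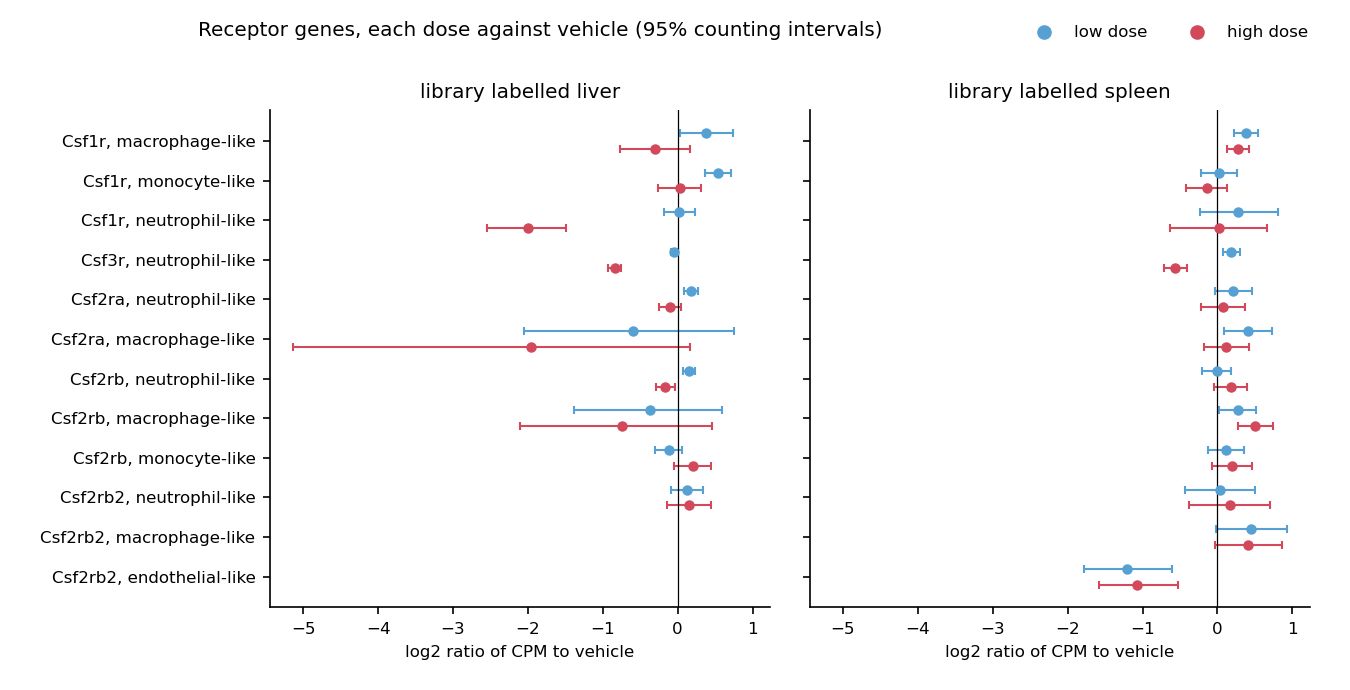
Log2 ratio of CPM to vehicle of the receptor genes in the classes that held them, for the low and the high dose in both libraries, with 95% counting intervals. In neutrophil-like cells of the liver-labelled library, Csf1r and Csf3r lay at -1.998 and -0.84 at the high dose, and Csf2rb2 in endothelial-like cells at -1.20 and -1.07. Ratios with too few UMIs, or of a class without cells, have no point.

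Over the 8 members, 6 had at least 50 UMIs over the groups compared in neutrophil-like cells. Of these 6, 2 (Csf1 and Csf1r) were lower by 2-fold or more and 0 higher in the high-dose group of the liver-labelled library, where 13.3% of 7425 genes were as much lower and 0.606% higher. The median log2 ratio of all those genes was -0.34, so the ratios of that comparison are to be read against it, and the median of the 6 members was -0.50. The same group of the spleen-labelled library had 1 member (Csf1) lower and 0 higher, against 4.83% lower and 1.99% higher of 3723 genes. At the low dose 0 members passed 2-fold in either library, against 1.23% lower and 0.147% higher of 8161 genes and 1.11% lower and 1.28% higher of 4614 genes.

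Other genes of the pathway were read from a list of 49 (chain-sharing ligands and receptors, proximal kinases, adaptors and STATs, feedback genes, targets and transcription factors). In neutrophil-like cells of the liver-labelled library, 41 had enough UMIs. At the low dose 0 passed 2-fold, against 0.147% higher and 1.23% lower of all genes tested. At the high dose 1 was higher and 2 lower, against 0.606% and 13.3% of all genes, with a median of -0.39 against -0.34 for all genes. The higher gene was Cish, a STAT5-induced inhibitor of cytokine receptors, at 2.10 CPM with the vehicle and 6.33 CPM at the high dose (1.59, 0.73 to 2.45). The lower ones were Gab2, an adaptor downstream of these receptors, at 14.2 and 4.56 CPM (-1.64, -2.43 to -0.93), and Bcl2a1b, a survival gene with close paralogs that share reads, at 4.11 and 0.759 CPM from 49 and 3 UMIs (-2.44, -4.76 to -0.80). Bcl2a1b met the minimum of 50 UMIs only through its vehicle UMIs, so its place among the lower genes is partly set by that minimum. The spleen-labelled library gave 1 of 32 higher at the low dose, Socs1, a feedback inhibitor of JAK kinases, at 7.22 and 16.2 CPM from 12 and 46 UMIs (1.16, 0.22 to 2.21), where 1.28% of all genes were higher. In the liver-labelled library Socs1 lay on the other side of the vehicle at the low dose. It stood there at 11.7 and 6.23 CPM from 140 and 69 UMIs (-0.91, -1.35 to -0.49). At the high dose 0 of 29 passed in either direction, against 1.99% higher and 4.83% lower of all genes. The median of the 29 was 0.00743 against -0.06 for all genes. The parts of the list were not alike: the 4 measured targets had a median of -0.72, and the medians of the other parts lay from 0.025 to 0.12. These counts cover only genes with at least 50 UMIs over the groups compared.

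The genes most like each member were taken over 37 units of cell class, group and library with at least 50 cells, by Pearson's r of log2(CPM + 10) among 11007 genes. Units of 1 library share its depth and its free RNA, so r is a description. Csf1r was most like Lrp1 (0.976), Cd68 and Mpeg1, and Csf3r most like Cd33 (0.957), Mmp8 and Igfbp6. Csf2rb was nearest to Ifitm3 (0.954), Gda and Cebpb, Csf2ra to Gda (0.949), Pgd and C1rl, and Csf2rb2 to Lamp2 (0.925), Adam15 and Hlx. Csf1 had looser neighbours, Oaz2 (0.714), Osgin1 and Ksr1. No unit of tumor cell-like cells reached 50 cells, so the neighbours found for Csf3 (Rab34, Lhfp and Slc12a2) were set by units nearly without Csf3 and are no guide to it.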

How the data were processed

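The authors deposited UMI counts per gene and barcode from 10x libraries, with hashtag antibody counts, after alignment to mm10. Cell Ranger is 5.0.0 in the matrix header and 6.0.0 in the submitters' processing notes. The study's methods give A0301 and 310 for staining and list the A0305 barcode too. Hashtag groups were called from the deposited counts with HTODemux (quantile 0.99) in Seurat 5.3.0 (R 4.3.3, sctransform 0.4.2); barcodes with several hashtags (616 and 215 in the libraries labelled liver and spleen) or none (540 and 1627) were left out. No other doublet filter was applied. Scrublet (scanpy 1.11.5) marked 248 and 1 barcodes, so removing its doublets is hardly a check in the spleen-labelled library, and doublets within 1 hashtag may remain. Cells were clustered without the 8 members (30 principal components, resolution 0.8) and called X-like where at least 3 fixed markers were raised by log2 1 or more in 20% of cells, thresholds set after the data were seen. Counts were summed per group and class (Python 3.11.15, scipy 1.17.1) and scaled to CPM, with exact Poisson, conditional binomial and Clopper-Pearson intervals; a count of 0 allows up to 3 counts. UMIs per cell were thinned to 500 for shares of cells. Ratios needed 10 UMIs, and genes counted past 2-fold needed 50. Each group is 1 pool of 2 mice, so no test was run. On simulated counts the intervals held the true ratio for 96.36% of 7425 genes in the liver-labelled library and 95.65% of 3723 in the other. This coverage concerns counting error alone and is no measure of the spread between cells or mice. The members, the lists and the rules for naming genes (every member, pathway genes past 2-fold, and the 3 genes most alike) were chosen with earlier results of these data known. Alternatives covered hashtag and doublet calling, cell filters, resolution, thinning, scaling and minimum counts, and those added after seeing the data are named as such.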

Additional observations from a re-analysis of the deposited data

Results flagged for a closer look

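Csf1 in neutrophil-like cells lay on opposite sides of the vehicle at the low dose. Its log2 ratio was -0.308 in the liver-labelled library and 0.3525 in the spleen-labelled library, and the difference was not tested, since each group is 1 pool. Cluster 2 of the liver-labelled library, high in Csf1, made up 45.8% of neutrophil-like cells with the vehicle and 23.7% at the low dose. Within that library cluster 3 stood at -0.35. Clusters 2, 6, 7 and 9 stood at 0.04, 0.70, 0.94 and 0.90, with intervals that held 0. The part of cluster make-up in the class ratio was not tested.

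Barcodes of the spleen-labelled library without a single hashtag, which no comparison used, held 3 members above their vehicle level. Csf2 and Csf2rb2 also stood above both dose groups, and Csf3 above the low dose alone. Csf2 stood at 3.108 CPM there, from 23 UMIs in 3 barcodes with 16 in 1 of them, against 0 CPM in cells of the vehicle. Csf3 stood at 22.84 CPM against 7.012 CPM with the vehicle, with 119 of its 169 UMIs in 1 barcode, and was below the 29.84 CPM of the high-dose group. Csf2rb2 stood at 64.86 CPM against 39.69 CPM.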

How the results depend on the processing

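Of 118 values recomputed under alternatives over 25 results, 85 stayed within the spread of counting error or within 1.5 times, 30 moved and 3 turned in sign. In the liver-labelled library, the vehicle share of Csf3r UMIs in neutrophil-like cells went from 93.1% to 94.0% without Scrublet doublets and to 90.5% at resolution 0.4, and that of Csf2rb from 60.9% to 52.3% at resolution 0.4, which placed 216 of the 402 cells of cluster 7 with granulocyte progenitor-like cells. The high-dose log2 ratios, taken as a mean over cells, were -3.65 for Csf1, -1.41 for Csf3r and -0.53 for Csf2rb. Without the 20 most abundant genes, Csf3r read -0.71 and Csf2rb -0.0344, and at resolution 0.4 Csf3r read -1.02. The percent of neutrophil-like cells with a Csf1 UMI, high dose minus vehicle, was -6.33 at 500 UMIs per cell, -12.2 at 1000 and -15.6 unthinned, and that of Csf3r was -23.3, -32.4 and 0.652, where the sign turned with the depth kept. Pathway genes past 2-fold went from 0 to 2 at the low dose and from 3 to 5 at the high dose with no minimum of UMIs, and to 0 at the high dose with 200 UMIs.

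In the spleen-labelled library, the filter on genes and mitochondrial UMIs gave 16.0% for the Csf1 share, 59.9% for that of Csf3r, 21.4% for that of Csf2rb, -1.25 for the high-dose ratio of Csf1 and -0.37 for that of Csf3r, with the loss of cluster 2 described above. MULTIseqDemux gave shares of 83.5% for Csf3r and 35.5% for Csf2rb and a Csf3r ratio of -0.38. A resolution of 1.6 gave 87.5% for the Csf1r share of monocyte-like, macrophage-like and dendritic cell-like cells, and a resolution of 0.4 turned the high-dose ratio of Csf1r in macrophage-like cells to -0.36. The mean over cells gave -0.88 for Csf3r. Unthinned, the difference in cells with a UMI was -13.4 for Csf1 against -6.83 at 500 UMIs, and it turned from -11.9 to 2.38 for Csf3r. Pathway genes past 2-fold went from 1 to 6 at the low dose with no minimum and to 0 with 200 UMIs, and from 0 to 9 at the high dose with no minimum. With all barcodes as the whole, an alternative chosen after seeing the data like the other settings tried for Csf3 and the readings within single clusters, the tumor cell-like share of Csf3 was 70.1%. Where no reassigned cells, depth or count minimum is named, the cause was not tested.

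No paired analysis was possible because each group is 1 pooled sample in each library, and for the same reason there is no replicate to leave out. The pooled mice, the 198 and 111 high-dose neutrophil-like cells and the 11 vehicle tumor cell-like cells limit every dose ratio, and cell classes rest on rebuilt names.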

Other observations

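Csf3r in macrophage-like cells of the spleen-labelled library was 38.6 CPM with the vehicle, 85.0 CPM at the low dose and 37.1 CPM at the high dose, and the low dose stood at 1.14 (0.55 to 1.77) to vehicle on the log2 scale. Over all groups, the 239 Csf3r UMIs of these cells compare with 46.0 computed from their S100a8 UMIs and the ratio of Csf3r to S100a8 in neutrophil-like cells. This computation was not made for each group, so it gives no value for the low dose.

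Csf3r in granulocyte progenitor-like cells was 46.5, 57.2 and 64.7 CPM in the vehicle, low-dose and high-dose groups of the liver-labelled library and 39.7, 32.9 and 62.3 CPM in the spleen-labelled library. The high-dose log2 ratios to vehicle were 0.48 (0.12 to 0.82) and 0.65 (0.24 to 1.06), on the other side of 0 from those of neutrophil-like cells as a class. Within most neutrophil-like clusters, though, Csf3r lay on the same side as in the progenitor-like cells. The ratios were 0.15, 0.41 and 0.33 in clusters 6, 7 and 9 of the liver-labelled library. In the other they were 0.52 in cluster 8 and -0.57 in cluster 11. Granulocyte progenitor-like cluster 6 of the spleen-labelled library had 70 cells with the vehicle and 14 at the high dose, and cluster 7 had 67 and 45. Within cluster 7, led by Camp and Cebpe with 3 neutrophil markers raised, the ratio was 0.55 (0.0575 to 1.05). The S100a8 of the progenitor-like cells was high, at 108533 and 50509 CPM in the libraries labelled liver and spleen against 151775 and 147400 CPM in neutrophil-like cells. The same computation gave 3543 Csf3r UMIs against 470 seen in the liver-labelled library and 1561 against 315 in the other. At such S100a8 levels it cannot separate free RNA from RNA of the cells themselves, so it is no measure of free RNA here. The difference between the classes was not tested.

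NK cell-like cells of the liver-labelled library had 17 Csf1 UMIs in 2 cells of the vehicle and none at either dose.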
